A study of Rattus norvegicus with 24 samples.

Results

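Segment 2 was set against Segment 1 in diabetic rat wounds treated with Gel, using 8 of the 24 areas of a GeoMx spatial transcriptomic study. Those 8 areas, 4 of each segment, were taken by their treatment and segment labels, and each Segment 2 area was matched to the Segment 1 area of the same region. There were 2 numbered specimens with 2 regions each, called mac1 and mac2 in the labels and regions 1 and 2 here. GeoMx hybridises indexed RNA probes to a fixed tissue section and releases the tags of a chosen area with ultraviolet light, so that one area gives the summed probe signal of all its cells. The rats were male Sprague-Dawley animals made diabetic at 5 weeks of age with streptozotocin, a toxin that destroys the insulin-producing cells of the pancreas. Each wound was a full-thickness skin defect of 8 mm, splinted against contraction and taken on day 7. Wounds of the other treatments, Sham and CuNZ@Gel, came from the same diabetic model. The labels describe the treatments as hydrogels without their composition. They name neither the fluorescent markers nor what separates Segment 1 from Segment 2, leave "mac" unexplained, and do not state whether each numbered specimen came from its own animal.

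A wound on day 7 is filled by granulation tissue, in which new capillaries grow among fibroblasts and macrophages. Each capillary is a tube of endothelial cells wrapped by pericytes, and both cell types share a basement membrane, a thin sheet of type IV collagen, laminin and the proteoglycan perlecan. Fibroblasts lay down the fibrillar matrix around the vessels, proteases such as the matrix metalloproteases remodel it, and macrophages clear debris and release growth factors. Vessel growth and matrix deposition are known to be slow in diabetic skin.

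Col4a1, which encodes a chain of type IV collagen, shared the smallest adjusted p of the comparison with Col15a1. Its start region is shown because it is also that of the neighbouring gene Col4a2. The genes lie head to head, and the Col4a1 window of 300 bases, chr16:84885347-84885646 on the plus strand of GRCr8 (RefSeq), runs from 250 bases before to 50 bases after the Col4a1 start. Capitals mark the 76 bases between the starts of Col4a1 and Col4a2.
Col4a1: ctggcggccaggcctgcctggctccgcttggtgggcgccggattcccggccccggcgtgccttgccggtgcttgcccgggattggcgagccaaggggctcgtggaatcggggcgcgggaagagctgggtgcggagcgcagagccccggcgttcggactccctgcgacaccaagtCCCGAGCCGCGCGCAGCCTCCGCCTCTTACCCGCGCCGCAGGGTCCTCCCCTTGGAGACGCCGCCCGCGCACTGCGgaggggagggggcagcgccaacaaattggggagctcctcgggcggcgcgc
Windows of the same kind were found for 8 of the 12 targets with the largest falls in Segment 2. Those of Col15a1, Nos3 and Rgs5, a basement membrane collagen, the endothelial nitric oxide synthase and a pericyte regulator of G-protein signalling, are shown with the hexamers AGGAAG and CGGAAG of either strand in capitals. These hexamers hold the GGAA core that ETS factors read, a family with members active in endothelial cells, and they can overlap, which does not change whether a window holds a match.
Col15a1 (chr5:66297296-66297595, plus strand): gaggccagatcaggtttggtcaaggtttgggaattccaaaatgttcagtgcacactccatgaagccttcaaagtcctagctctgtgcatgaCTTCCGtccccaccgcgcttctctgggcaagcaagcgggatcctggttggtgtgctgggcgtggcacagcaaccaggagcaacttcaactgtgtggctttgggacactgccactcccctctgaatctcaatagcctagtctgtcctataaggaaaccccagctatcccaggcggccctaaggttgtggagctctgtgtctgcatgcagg
Nos3 (chr4:11706532-11706831, minus strand): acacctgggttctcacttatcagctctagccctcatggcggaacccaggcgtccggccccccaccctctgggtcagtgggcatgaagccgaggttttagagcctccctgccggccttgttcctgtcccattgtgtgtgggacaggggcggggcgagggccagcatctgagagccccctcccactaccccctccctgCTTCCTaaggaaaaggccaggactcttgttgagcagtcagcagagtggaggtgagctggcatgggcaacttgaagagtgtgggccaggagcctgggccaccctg
Rgs5 (chr13:84380827-84381126, plus strand): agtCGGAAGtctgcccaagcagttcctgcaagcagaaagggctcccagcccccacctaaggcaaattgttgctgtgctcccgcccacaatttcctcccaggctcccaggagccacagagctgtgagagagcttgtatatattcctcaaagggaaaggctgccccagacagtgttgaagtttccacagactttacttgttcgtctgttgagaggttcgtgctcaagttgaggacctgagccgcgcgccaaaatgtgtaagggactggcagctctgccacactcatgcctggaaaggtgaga
A match stood in a window of 6 of these 8 targets (Col15a1, Mbnl2, Nos3, Pdgfa, Pdlim1 and Rgs5), and Mbnl2 also had a window without a match. The windows of Cd34 and Olfml2b held 0 matches, so those printed with capitalised hexamers are all from targets with a match. For Sox18, Med1, Galnt18 and Btaf1 no window was found. Of all 33469 annotated windows 45.5% held a match, and of those of the targets tested 55.9%. These shares are per window, and the count is a description of the letters only.

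Values are the deposited signal, scaled by the submitters with 1 factor per area. The background of an area was the 99th percentile of its 1116 odorant and pheromone receptor targets, genes that skin is not expected to use, and ran from 11.4 to 16.4 in the Gel areas. Of 19962 gene targets, 4280 exceeded it in at least 4 of the 8 Gel areas and were tested. Of these, 42 exceeded it in Segment 1 areas only and 0 in Segment 2 areas only. The 75th percentile of an area, on which the scaling rests, was 12.3 in 7 Gel areas and 12.1 in the eighth. It lay below the background of its area except in specimen 2 region 1 Segment 1. Recovered counts ran from 322151 to 873465 in Segment 1 and from 139680 to 688507 in Segment 2. Segment 2 was the shallower in 3 regions and the deeper in specimen 1 region 2. The macrophage genes Cd68, Csf1r and Lyz2 stood above background in all 8 Gel areas. Ptprc, the common leukocyte gene, Adgre1, the rodent macrophage gene, Il1b, Pecam1, the endothelial adhesion gene, and the basal keratinocyte genes Krt5 and Krt14 stood above background in 0 of the 8. Of the neutrophil genes S100a8 and S100a9, the first did so in 1 area and the second in 2. The targets carry mouse symbols, so a low value can also come from a probe that reads rat RNA poorly, which was not tested.

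Called lower in Segment 2 were genes of the vessel wall such as Col4a1, Col15a1 and Sox18. So were pericyte genes such as Mcam and fibroblast matrix genes such as Bgn. Of the 10 tested pan-macrophage markers 0 passed in either direction, a count near the share called over all targets tested. In limma's test with Benjamini-Hochberg adjustment at 0.05, 148 targets were lower in Segment 2 (3.46%) and 0 were higher. At an unadjusted p under 0.05 there were 833 lower and 3 higher. The 148 had a median log2 difference of -0.73, and that nearest to 0 was -0.43. They were lower in all 4 regions in 135 cases, against 28.6% of all targets tested. In 53 of the 148 cases all 4 Segment 2 areas lay below all 4 Segment 1 areas, against 6.89% of all targets tested. The 148 were called on these same areas, so both counts only describe them. An area is a bulk sample, in which fewer cells of a type and less RNA per cell cannot be told apart.

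The tested targets were also shifted as a set, which did not hold for the wider panel. The median log2 difference over the 4280 targets was -0.24, and 84.6% of them lay below 0. With each area centred on its own median, 25 targets were lower (0.584%) and 0 higher, and all 25 were among the 148. Among them were Acta2, Actn1, Bgn, Btg1, Cav1, Cd34, Col15a1, Col4a1, Col6a1, Fam43a, Hspg2, Igfbp7, Lama4, Mcam, Mmp13, Mmp14, Nos3, Olfml2b, Pdlim1, Rgs5, Rhob, Sox18, Spint3 and Thy1. edgeR's quasi-likelihood test on the recovered counts, which scales the areas anew, gave 51 lower and 8 higher, and quantile normalization gave 23 lower and 5 higher. With Gel specimen 1 left out 15 targets were lower and with specimen 2 left out 58. No target passed when the spread of each target was moderated without the trend and robust options, or when the specimen was not a block.

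**Figure D1:**
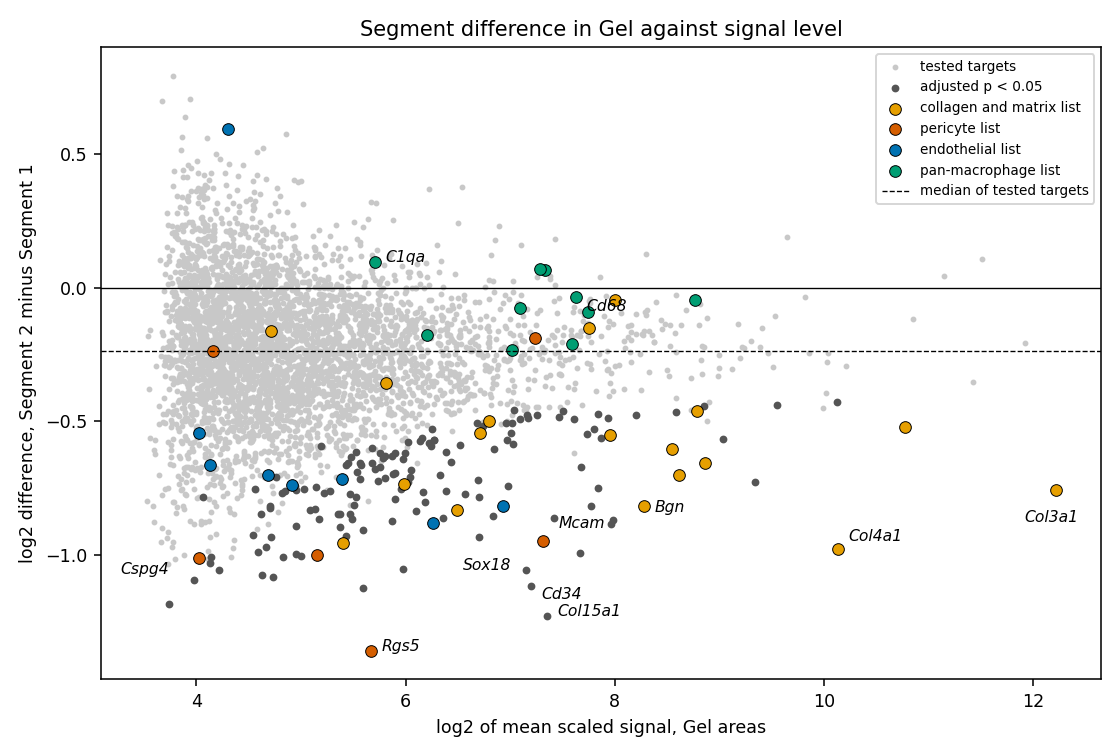
Log2 difference between Segment 2 and Segment 1 in Gel against the log2 mean scaled signal of the Gel areas, 1 point per tested target (grey), with called targets in dark grey and the members of 4 gene lists in colour. The collagen, pericyte and endothelial lists lie mostly below the dashed median of -0.24, and the pan-macrophage list lies at or above it.

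By region, the median difference of the 148 was -0.57 in specimen 1 region 1, -0.86 in specimen 1 region 2, -0.65 in specimen 2 region 1 and -0.69 in specimen 2 region 2. The medians of all 4280 targets in the same order were -0.13, -0.31, -0.16 and -0.31. Specimen 1 region 2, the only region in which Segment 2 was the deeper (688507 against 481134 counts), had the most negative median for the 148. The 148 were called on the mean over these regions, so the medians describe them and test nothing. With the counts of every area thinned to the shallowest area, 39 targets were lower, 30 of them among the 148. How much of the differences comes from depth was not tested beyond this. The negative probe, another measure of background, had a higher scaled signal in Segment 2 in all 4 regions. In the same order it stood at 3.35, 3.85, 2.64 and 2.65 in Segment 1 and at 3.70, 5.42, 3.18 and 3.61 in Segment 2. The receptor background was lower in Segment 2 in specimen 1 region 2 (14.32 against 14.99) and higher in the other regions. How much of the differences comes from background under this scaling was not tested.

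**Figure D2:**
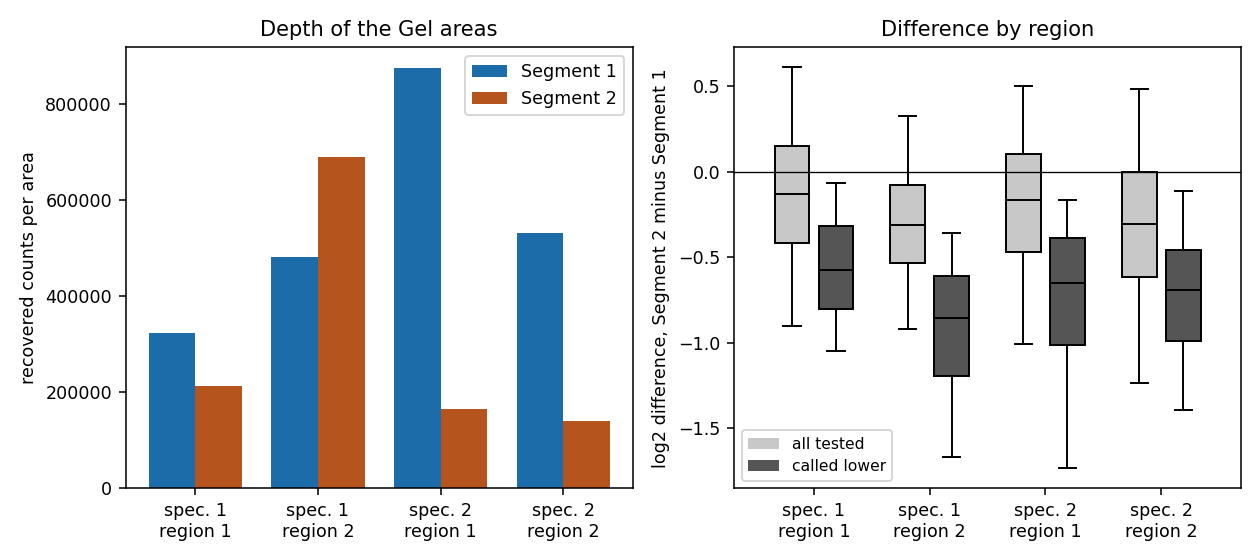
Left, recovered counts of the 8 Gel areas by region and segment. Right, the log2 difference between the segments in each region for all 4280 tested targets (light) and the 148 called lower (dark), with boxes from the first to the third quartile, the median as a line and whiskers from the 5th to the 95th percentile. The medians of the called targets, which were chosen on these areas, run from -0.86 to -0.57, and those of all tested targets from -0.31 to -0.13.

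Col4a1 and Col15a1, collagens of basement membranes, shared the smallest p-value after adjustment. Area values are listed in the order specimen 1 region 1, specimen 1 region 2, specimen 2 region 1, specimen 2 region 2. Col4a1 had signals of 1147, 1267, 2218 and 1376 in Segment 1 and of 771, 543, 895 and 785 in Segment 2. Every Segment 2 area lay below every Segment 1 area. The means were 1502 ± 417.5 and 749 ± 129 (SD of specimen means, n = 2), a log2 difference of -0.98 (SE 0.12, limma's adjusted p = 2.95e-06).

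Col15a1, the collagen that links vascular and muscle basement membranes to the surrounding matrix, stood at 150.0, 293, 364 and 121 in Segment 1. In Segment 2 it stood at 74.9, 72.7, 155 and 73.6, lower within every region, with the groups overlapping through specimen 2 region 1. Its log2 difference was -1.23 (SE 0.14, limma's adjusted p = 2.95e-06). Both collagens lost their call only without the trend and robust options and without the specimen block, and Col15a1 also with areas as samples and the region as a block.

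Col4a2, whose start region Col4a1 shares, was at background in all 8 Gel areas, from 4.77 to 7.55 in Segment 1 and from 2.04 to 6.34 in Segment 2, and was not tested. Other genes of this sheet were singled out after their values were seen. Hspg2, which encodes perlecan, averaged 325 ± 68.2 in Segment 1 and 174 ± 40.4 in Segment 2, a log2 difference of -0.89 (SE 0.13, limma's adjusted p = 0.000167), with no overlap between the segments. Lama4, a laminin chain of vessels, averaged 287 ± 10.9 and 170.2 ± 16.7, a log2 difference of -0.75 (SE 0.13, limma's adjusted p = 0.000506). Igfbp7, a secreted protein abundant around vessels, fell by 0.99 on the log2 scale (SE 0.14, limma's adjusted p = 4.10e-05), from 270 ± 105.6 to 136 ± 45.4, without overlap. SDs here are over the 2 specimen means.

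**Figure D3:**
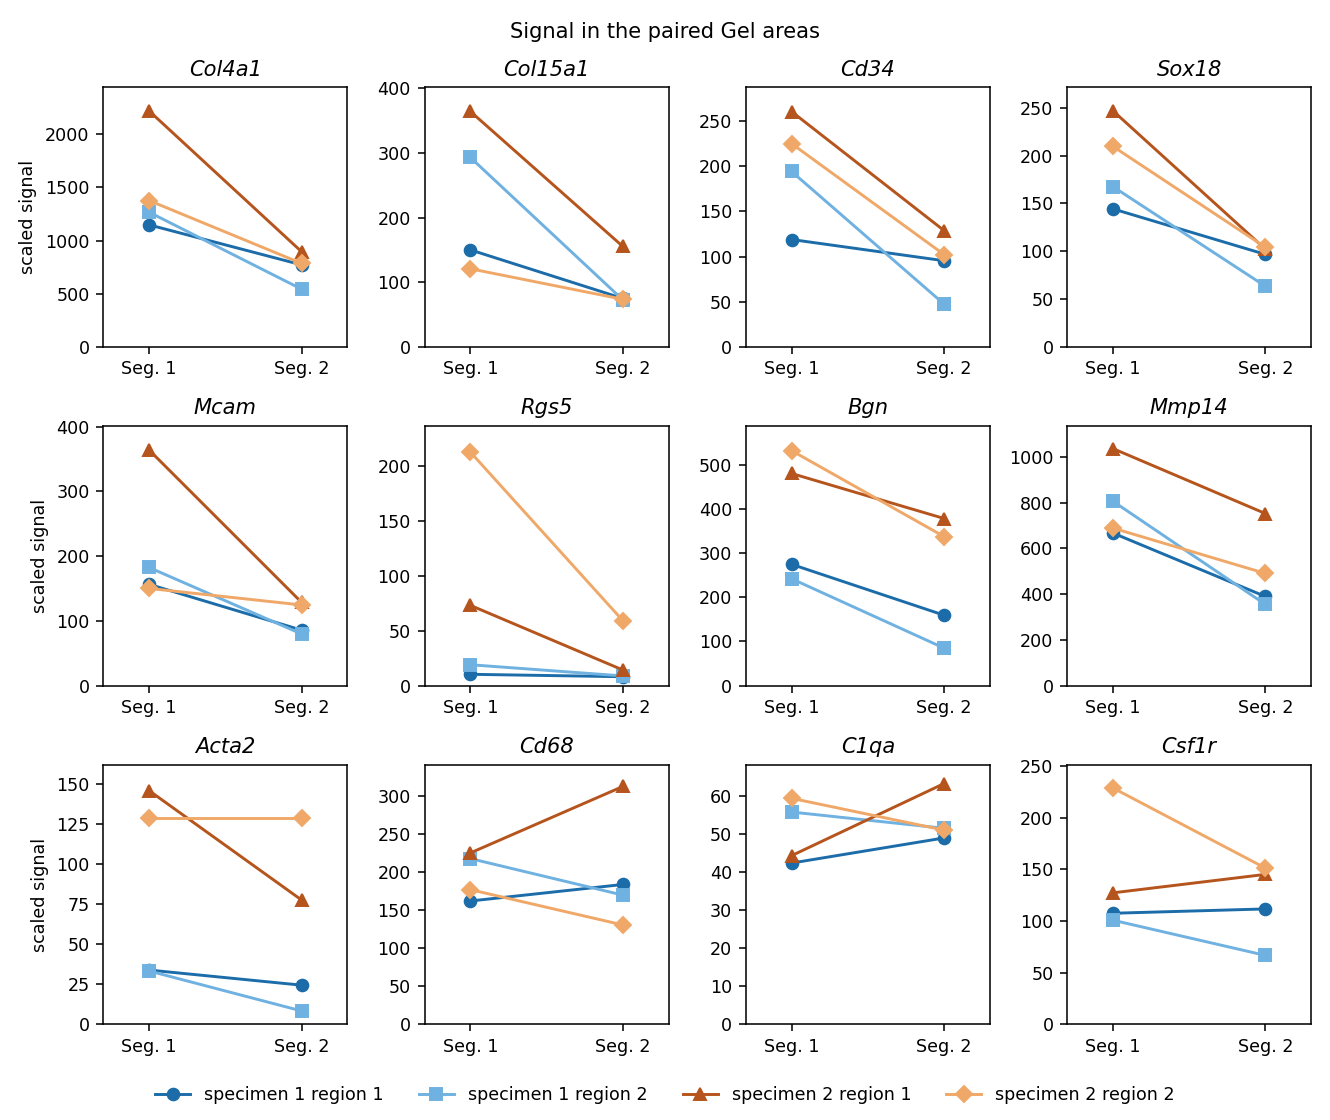
Scaled signal of 12 genes in the 8 Gel areas, with a line joining the Segment 1 and Segment 2 area of each region and linear axes from 0. Col4a1, Col15a1, Cd34, Sox18, Mcam, Rgs5, Bgn and Mmp14 drop from Segment 1 to Segment 2 in all 4 regions, Acta2 in 3, and Cd68, C1qa and Csf1r rise in some regions and drop in others.

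Of the 10 pericyte markers listed, 6 were tested, and 3 of the 6 were lower in Segment 2 (2 when areas were centred). Over all targets tested 3.46% were lower (0.584% when centred), and the lists below are to be read beside these shares. The median difference of the pericyte list was -0.98 against -0.24 for all targets tested. Of the 6, 4 lay below that overall median, namely Mcam, Rgs5, Abcc9 and Cspg4. The remaining tested members fell no more than the median target, and 0 of the 6 lay above 0. Mcam, an adhesion molecule of pericytes and endothelium, stood at 157, 183, 364 and 150.2 in Segment 1 and at 85.9, 79.9, 129 and 125 in Segment 2, with no overlap. Its log2 difference was -0.95 (SE 0.15, limma's adjusted p = 0.000229). The call was lost in 4 of 22 alternatives, among them the omission of specimen 1 and areas as samples with the region as a block, with adjusted p-values up to 0.251.

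Rgs5, a regulator of G-protein signalling that marks pericytes, had the largest fall among the called targets. It stood at 10.4, 19.1, 73.2 and 213 in Segment 1 and at 8.18, 8.88, 14.3 and 59.3 in Segment 2. Most of its signal was in specimen 2, whereas in specimen 1 both regions lay near background in Segment 1 and below it in Segment 2. The log2 difference was -1.36 (SE 0.25, limma's adjusted p = 0.00559), and the call was lost without specimen 2. Abcc9, a subunit of the pericyte potassium channel, stood at 37.7, 30.0, 66.8 and 58.9 against 21.8, 19.9, 28.6 and 20.4, with no overlap, and fell by 1.00 (SE 0.22, limma's adjusted p = 0.00777). Centring ended the call of Abcc9 (adjusted p = 0.0893). Cspg4, the NG2 proteoglycan, gave -1.01 and did not pass (adjusted p = 0.0586).

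Of 20 endothelial markers, 8 were tested and 2 were lower (0 after centring), against 3.46% of all targets tested (0.584% after centring). The list median was -0.71, with 1 member above 0. By region the list had medians of 0.03, -0.60, -0.91 and -0.93, so that specimen 1 region 1 did not have the lower median in Segment 2. Plvap, a component of the diaphragms of capillary pores, stood at 60.4, 68.1, 118 and 144 in Segment 1 and at 58.6, 20.7, 51.1 and 94.0 in Segment 2, lower within every region but with overlapping groups. It fell by 0.88 (SE 0.18, limma's adjusted p = 0.00391, and 0.0665 when centred). Aplnr, the apelin receptor of sprouting endothelium, stood at 105, 62.0, 277 and 197 against 74.9, 40.2, 106 and 112, and fell by 0.82 (SE 0.18, limma's adjusted p = 0.0107, and 0.0949 when centred). The call of Aplnr was also lost without specimen 2, and with areas as samples and the region as a block (adjusted p = 0.148). Erg, an endothelial ETS factor, gave -0.72 (adjusted p = 0.0589) and Flt1, a VEGF receptor, gave -0.74 (adjusted p = 0.104), and neither passed.

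Endothelial genes outside that list stood among the largest falls. Sox18, a transcription factor of vessel development, had signals of 144, 168, 247 and 209.7 in Segment 1 and of 96.8, 63.4, 102 and 104 in Segment 2. No Segment 2 area reached the lowest Segment 1 area, and the log2 difference was -1.06 (SE 0.15, limma's adjusted p = 4.10e-05). Nos3, the endothelial nitric oxide synthase, stood at 48.1, 72.2, 119 and 105 against 35.4, 27.1, 51.1 and 45.0, lower in every region, with a log2 difference of -1.05 (SE 0.20, limma's adjusted p = 0.00219). Cd34, carried by endothelium and by dermal fibroblasts, stood at 119, 194, 260.5 and 225 against 95.4, 47.4, 129 and 102. The 2 segments overlapped for Cd34, and the log2 difference was -1.12 (SE 0.16, limma's adjusted p = 4.75e-05).

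Of the 12 largest falls that were lower in all 4 regions, 7 kept their call after centring. Besides Rgs5, Col15a1, Cd34, Sox18 and Nos3 these were Pdlim1, an actin-binding LIM protein, with -1.13, and Olfml2b, a matrix protein, with -1.08. The other 5 did not, and low signal was not confined to them. Olfml2b exceeded background in 5 of the 8 Gel areas and Rgs5 in 4, each in only 1 Segment 2 area. Mbnl2, among the other 5, did so in 7. Med1, a Mediator subunit, gave -1.18. Med1 and Pdgfa exceeded background in 0 of the 4 Segment 2 areas and were tested through their Segment 1 areas alone, which favours a lower value in Segment 2, so their differences are given as descriptions. Galnt18, a glycosyltransferase, gave -1.08, Btaf1, a regulator of the TATA-binding protein, -1.06, Mbnl2, a splicing factor, -1.01, and Pdgfa, a growth factor for fibroblasts and pericytes, -1.03. Their adjusted p-values after centring ran from 0.112 for Mbnl2 to 0.308 for Med1, with 0.278 for Pdgfa, 0.273 for Galnt18 and 0.247 for Btaf1.

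Of 18 fibroblast markers, 11 were tested and 5 were lower (2 after centring), against 3.46% of all targets tested (0.584% after centring). In all 4 regions 6 were lower, against 28.6% of all targets tested, and the list median was -0.65. The 5 called were Cd34, Thy1, Prrx1, Postn and Fap. Thy1, a surface protein of dermal fibroblasts, stood at 83.0, 89.9, 193 and 215 against 72.2, 30.0, 102 and 127, lower in every region with overlapping groups, and fell by 0.86 (SE 0.15, limma's adjusted p = 0.00118). Fap, the protease of activated fibroblasts, gave -0.71 (adjusted p = 0.0465), Postn, the matricellular protein periostin, -0.74 (adjusted p = 0.0452), and Prrx1, a transcription factor of dermal mesenchyme, -0.48 (adjusted p = 0.0419). After centring Fap, Postn and Prrx1 did not pass (adjusted p = 0.453, 0.561 and 0.545). The call of Postn was lost in 12 of 21 alternatives and that of Prrx1 in 14 of 22. In specimen 2 region 2 Postn was higher in Segment 2 (110 against 107).

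Of 24 collagen and matrix genes 18 were tested and 8 were lower (3 after centring), against 3.46% of all targets tested (0.584% after centring). The list median was -0.58 and 0 of the 18 lay above 0, where 84.6% of all targets tested lay below 0. Bgn, the small proteoglycan biglycan, stood at 274, 242, 480.0 and 532 in Segment 1 and at 159, 85.0, 378 and 337 in Segment 2, lower within every region, the groups overlapping only across specimens, and fell by 0.82 (SE 0.14, limma's adjusted p = 0.000912). Col6a1, a chain of the beaded collagen VI filaments, stood at 442, 341, 579 and 548 against 299.8, 148, 390.4 and 392, and fell by 0.70 (SE 0.13, limma's adjusted p = 0.00175). Col6a3, its partner chain, fell by 0.83 (SE 0.16, limma's adjusted p = 0.00205, and 0.0665 when centred).

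The main fibrillar collagens had large differences between regions and did not pass. Col3a1 had the strongest signal of the matrix list, with 3916, 3215, 5826 and 9164 in Segment 1 and 1915, 1193, 4149 and 8656 in Segment 2. It was lower in every region, by little in specimen 2 region 2, and its log2 difference of -0.76 did not pass (SE 0.30, limma's adjusted p = 0.281). Col1a1 stood at 86.8, 99.5, 166 and 137 against 57.2, 37.2, 139 and 164, higher in Segment 2 in the last region, and its difference of -0.50 did not pass (adjusted p = 0.261). By region the matrix list had medians of -0.63, -1.28, -0.42 and -0.01, with members in both directions in specimen 2 region 2, where Bgn and Col6a1 were lower and Col1a1 higher in Segment 2. The pericyte list had -0.75, -0.45, -1.17 and -1.16 in the same order.

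Matrix proteases were lower in Segment 2 in 5 of 9 tested cases of the 22 listed (2 after centring). Over all targets tested the shares were 3.46% and 0.584%, and the list median was -0.57. The 5 were Mmp14, Mmp13, Adam12, Mmp2 and the inhibitor Timp3. Mmp14, the membrane-bound collagenase, stood at 667, 806, 1036 and 689 in Segment 1 and at 389.7, 355, 752 and 491 in Segment 2, a log2 difference of -0.73 (SE 0.12, limma's adjusted p = 0.000506). Mmp13, a secreted collagenase, stood at 6.60, 108, 64.7 and 9.81 against 6.81, 21.1, 22.5 and 8.18. Mmp13 was above background in only 1 region of each specimen, and there its signal was lower in Segment 2, while in the other regions both segments lay at background. Its log2 difference was -0.996 (SE 0.19, limma's adjusted p = 0.00249), and the call was lost when specimen 1, specimen 1 region 2 or specimen 2 region 1 was left out. It was also lost after quantile normalization and with areas as samples and the region as a block (adjusted p = 0.0739), in 7 of 20 alternatives in all.

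Mmp2, a gelatinase, gave -0.57 (adjusted p = 0.0175), Adam12, a fibroblast metalloprotease, -0.59 (adjusted p = 0.0145), and Timp3, which binds to the matrix, -0.87 (adjusted p = 0.0341). Timp1, the soluble inhibitor, averaged 206 ± 2.65 and 185 ± 26.3 and gave -0.07 (adjusted p = 0.796); it was named after its values were seen. Of the 6 wound growth factors tested Wnt5a was lower. Pdgfa also passed the threshold, but through a filter that it met in Segment 1 alone. Wnt5a, a ligand of non-canonical Wnt signalling, stood at 12.3, 45.6, 56.2 and 16.6 against 5.45, 15.2, 42.9 and 8.18, and gave -0.97 (SE 0.21, limma's adjusted p = 0.00678, and 0.112 when centred). Pdgfa stood at 25.5, 15.7, 35.1 and 20.2 against 12.3, 10.995, 8.18 and 12.3, without overlap, although all 4 Segment 2 values were below background.

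Contractile and cytoskeletal genes were divided. Acta2, the smooth muscle actin of pericytes and myofibroblasts, stood at 34.0, 33.4, 146 and 129 in Segment 1 and at 24.5, 8.46, 77.7 and 129 in Segment 2. It was lower in 3 regions and equal in specimen 2 region 2, with a log2 difference of -0.80 (SE 0.15, limma's adjusted p = 0.00175). That call was lost when specimen 1, specimen 1 region 2 or specimen 2 region 1 was left out, with areas as samples and the region as a block (adjusted p = 0.0524), and in 10 of 21 alternatives in all. Of 14 contractile genes 5 were tested, and Acta2 was the only one lower, with a list median of -0.22. Tpm1, Cald1 and Tpm2, which bind actin filaments, gave -0.27, -0.22 and -0.22, near the median of all targets tested, and did not pass.

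Of 21 actin and adhesion genes, 15 were tested and 5 were lower, against 3.46% of all targets tested. The list median was -0.28, and none was called after centring. Vim, the mesenchymal intermediate filament, stood at 988, 1284, 1916 and 939 against 798.5, 803, 1449 and 746, lower in every region, and gave -0.43 (SE 0.11, limma's adjusted p = 0.0263). Myh9, non-muscle myosin, gave -0.53 (adjusted p = 0.0168), Flna, the actin crosslinker filamin A, -0.51 (adjusted p = 0.0300), and Itgb1, the integrin beta-1 chain, -0.49 (adjusted p = 0.0314). Over 22 alternatives each, the call was lost in 10 for Vim, 9 for Myh9, 12 for Flna and 11 for Itgb1, edgeR and DESeq2 among them. Hspb1, a small heat shock protein that binds actin, was the 1 lower target of 11 tested immediate-early and heat shock genes, with -0.79 (adjusted p = 0.00559). Its call was lost when areas were centred (adjusted p = 0.0759) and in 8 of 22 alternatives in all. Fabp4, a fatty acid carrier of adipocytes, capillaries and macrophages, was the only adipocyte marker tested. It stood at 221, 72.9, 263 and 729 against 196, 24.5, 157 and 356, lower in every region, and gave -0.87 (SE 0.20, limma's adjusted p = 0.0228, and 0.281 when centred). The call of Fabp4 was lost in 10 of 22 alternatives, among them the omission of either specimen and areas as samples with the region as a block (adjusted p = 0.115).

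Of 20 pan-macrophage markers 10 were tested and 0 were lower or higher, near the share over all targets tested (3.46% lower, 0 higher). The list median was -0.06, above the median of all targets tested, with 3 members above 0. Cd68, a lysosomal glycoprotein, stood at 162, 218, 225 and 177 in Segment 1 and at 184, 170.0, 313 and 131 in Segment 2, higher in region 1 and lower in region 2 of both specimens. The means were 196 ± 7.90 and 199 ± 31.7 (SD, n = 2), a log2 difference of -0.04 (SE 0.13, limma's adjusted p = 0.898). Its sign depended on the scaling, from -0.26 to 0.25 over the alternatives.

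C1qa, a chain of the complement initiator C1q that tissue macrophages make, stood at 42.5, 55.9, 44.4 and 59.5 against 49.1, 51.6, 63.4 and 51.1, with a difference of 0.09 (SE 0.19, limma's adjusted p = 0.813). C1qb gave -0.08 (adjusted p = 0.873) and Lyz2, lysozyme, -0.21 (adjusted p = 0.408). Csf1r, the receptor for macrophage survival signals, stood at 108, 101, 127 and 229 against 112, 66.8, 145 and 151 and gave -0.23 (SE 0.14, limma's adjusted p = 0.336). A p that misses the threshold does not show equal levels.

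Markers of macrophage states did not pass either, where 3.46% of all targets tested were called lower and 0 higher. Of 20 repair macrophage markers 5 were tested and 0 passed, with a median of -0.15. Mrc1, the mannose receptor, gave -0.35 (adjusted p = 0.332) and Stab1, a scavenger receptor, -0.42 (adjusted p = 0.166). Arg1, the arginase of repair macrophages, varied more between regions than between segments, with 34.0, 189, 245 and 10.4 against 36.8, 94.7, 255.5 and 12.3. Its difference was -0.15 (SE 0.17, limma's adjusted p = 0.637), and the region of each specimen with the higher Arg1 signal was the one in which Mmp13 stood above background.

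Of the 20 inflammatory markers 5 were tested and 0 passed, with a median of -0.48. Nlrp3, the inflammasome sensor, gave -0.88 (adjusted p = 0.0771), with 0 of its 4 Segment 2 areas above background, and Irf1, an interferon-induced factor, -0.49 (adjusted p = 0.122). Of 20 lipid and lysosome markers 9 were tested and 0 passed, with a median of -0.12. Among 12 MHC class II genes 2 were tested, and Cd74, the invariant chain, gave -0.08 (adjusted p = 0.835). The 6 tested complement genes had a median of 0.01 and the 7 tested chemokines and receptors 0.03, with 0 calls in each. C3, the central complement component, stood at 159, 80.4, 73.6 and 402 against 169, 164.5, 96.1 and 237, and gave 0.18 (adjusted p = 0.674).

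**Figure D4:**
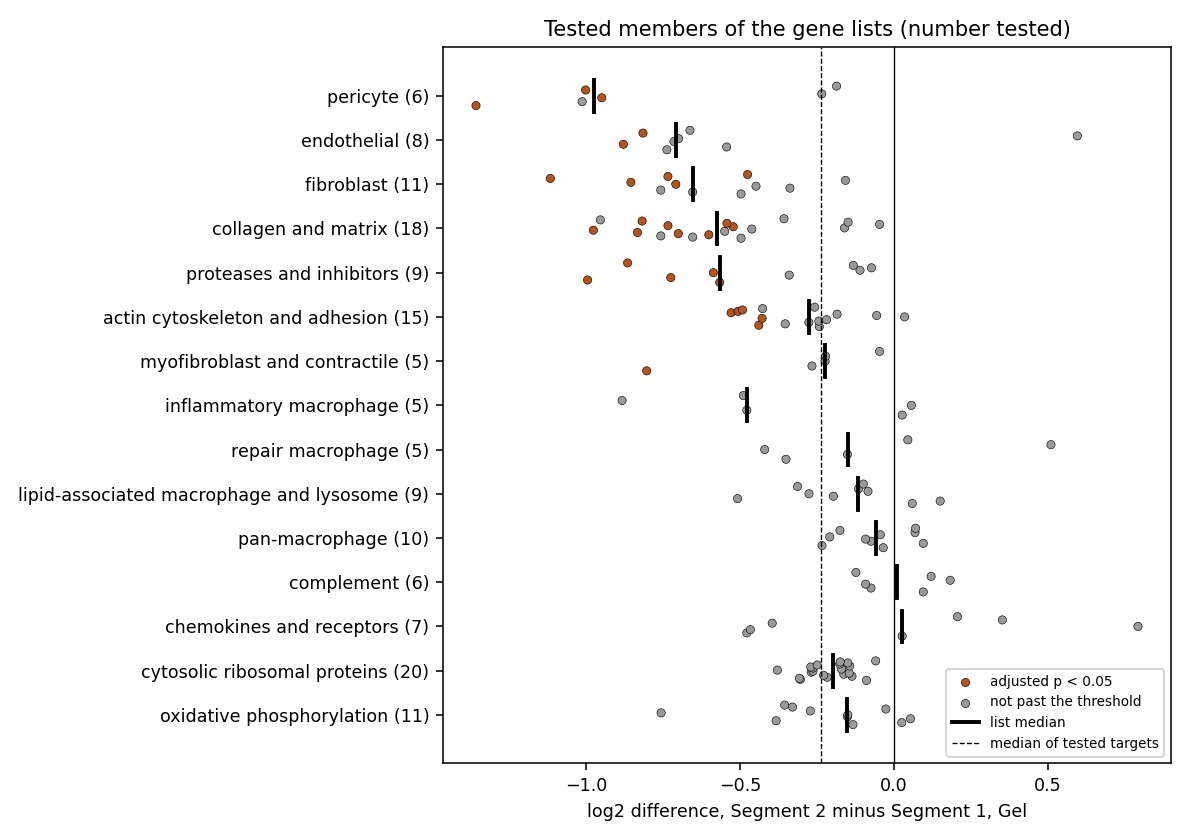
Log2 difference between the segments in Gel for each tested member of 15 gene lists, 1 point per gene, coloured where the adjusted p was under 0.05, with the list median as a bar and the number tested in brackets. Lists of vessel, fibroblast and matrix genes have medians from -0.98 to -0.57, and the pan-macrophage, complement and chemokine lists have medians from -0.06 to 0.03.

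General cell genes lay near the median of all targets tested. The 20 tested ribosomal protein genes had a median of -0.20 and the 11 tested genes of oxidative phosphorylation -0.15, with 0 calls in either list. Mt2, a metallothionein that binds zinc and copper, was one of the strongest targets in these wounds and stood at 4130.2, 2371, 2298 and 2396 in Segment 1 and at 3984, 3645, 2602 and 1915 in Segment 2. Its difference was 0.11 (SE 0.13, limma's adjusted p = 0.664). Of 9 tested genes of metal handling 1 was lower, the zinc importer Slc39a14, with -0.47 (adjusted p = 0.0314, and 0.505 when centred).

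Other cell types were hardly seen. Of the neutrophil, mast cell, lymphatic endothelial and melanocyte lists 0 members were tested, and of the 2 keratinocyte lists, the hair and sebaceous, nerve, skeletal muscle and erythroid lists 1 member each. Of 22 T and NK cell markers 2 were tested and 0 passed, Cd3e with 0.71 (limma's adjusted p = 0.279) and Lck with 0.11 (adjusted p = 0.855). Their median was 0.41, and by region 1.22, -0.41, 0.44 and 0.39. Cd3e exceeded background in 1 Segment 1 area and 3 Segment 2 areas. Of the B and plasma cell list 2 members were tested and 0 passed, with a median of -0.19. Acta1, skeletal muscle actin, stood at 5.66, 11.6, 62.6 and 28.2 against 5.45, 13.1, 87.9 and 20.4 and gave 0.04 (SE 0.29, limma's adjusted p = 0.954). Hba-a1, a haemoglobin chain, stood at 17.0, 66.8, 22.4 and 27.0 against 12.3, 21.6, 24.5 and 63.4 and gave -0.17 (SE 0.51, limma's adjusted p = 0.880). Summed over all listed members, the skeletal muscle list ran from 129 to 189 in Segment 1 and from 138 to 251 in Segment 2, and the erythroid list from 41.5 to 90.6 and from 30.0 to 100.2, so that both ranges overlapped.

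No target was higher in Segment 2 past the threshold. Differences above 0 in all 4 regions occurred in 46 targets (1.07%). In 4 targets (0.0935%) all Segment 2 areas exceeded all Segment 1 areas, namely Hcst, Plin2, Renbp and Rprd1a, which are named after their values were seen. Plin2, the coat protein of lipid droplets, stood at 39.6, 40.9, 38.1 and 36.2 against 42.2, 41.9, 42.9 and 45.0, a difference of 0.15 (SE 0.20, adjusted p = 0.696). Hcst, an activating adaptor of lymphoid and myeloid cells, gave 0.56 (adjusted p = 0.291). The smallest adjusted p among the positive differences was that of Cd53, a tetraspanin of leukocytes, which stood at 63.2, 84.5, 59.6 and 52.7 against 105, 81.2, 87.9 and 63.4. Cd53 gave 0.37 (SE 0.16, adjusted p = 0.197). It was called higher in edgeR (log2 0.53, adjusted p = 0.0324) and after quantile normalization (log2 0.65, adjusted p = 0.024), and its adjusted p was 0.0773 when areas were centred.

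The same fit gave the segment difference in the other treatments, so that the Gel values can be read beside them. In CuNZ@Gel 195 targets were lower in Segment 2 (4.56%) and 0 higher, and in Sham 39 were lower (0.911%) and 1 (0.0234%), Palld, higher. The targets called lower in both Gel and CuNZ@Gel were 51, which is 34.5% of the Gel calls and 26.2% of the CuNZ@Gel calls. Those called lower in both Gel and Sham were 10, or 6.76% of the Gel calls and 25.6% of the Sham calls. The treatments share no area, but all 3 share the pooled spread of the fit.

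Col4a1, Mcam, Nos3 and Plvap were lower in Segment 2 in all 3 treatments. Col4a1 gave -0.98 in Gel, -0.65 in Sham (limma's adjusted p = 0.00511) and -1.37 in CuNZ@Gel (adjusted p = 1.72e-09). Mcam gave -0.95, -0.68 and -1.57 in the same order, Nos3 -1.05, -0.87 and -1.43, and Plvap -0.88, -0.84 and -1.18. Sox18 gave -1.06, -0.55 and -1.63 and missed the threshold in Sham (adjusted p = 0.0619). No segment difference in Gel differed past the threshold from that in CuNZ@Gel in limma, with 200 targets at an unadjusted p under 0.05. edgeR on the recovered counts called 1, Mmp13.

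The segment difference of Gel differed from that of Sham for 8 targets (0.187%). These were Acta2, Actn1, Col15a1, Igfbp4, Inhba, Mmp13, Prrx1 and Wnt5a, each with the more negative difference in Gel. Acta2 in Sham stood at 485.5, 594, 373.5 and 515 in Segment 1 and at 714, 836, 425 and 709 in Segment 2, higher in Segment 2 within every region, whereas in Gel it was lower in 3 regions and equal in the fourth. The difference of the differences was -1.23 (SE 0.21, limma's adjusted p = 0.00947). The call against Sham was lost in 9 of 20 alternatives, among them quantile normalization, DESeq2 and areas as samples with the region as a block. Neither Sham's own difference of 0.42 (adjusted p = 0.178) nor that of CuNZ@Gel, -0.31 (adjusted p = 0.214), passed.

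Actn1, the actin crosslinker alpha-actinin 1, gave -0.85 in Gel and 0.32 in Sham, a difference of -1.17 (SE 0.24, limma's adjusted p = 0.0288). In Gel it stood at 27.4, 62.0, 71.9 and 52.7 in Segment 1 and at 21.8, 23.3, 32.7 and 34.7 in Segment 2. Mmp13 in Sham stood at 90.9, 67.1, 70.0 and 5.61 in Segment 1 and at 113, 120.2, 135 and 4.09 in Segment 2, and its difference from Gel was -1.42 (SE 0.27, adjusted p = 0.0246). Wnt5a differed by -1.36 (adjusted p = 0.0355), Inhba, a subunit of activin, by -1.14 (adjusted p = 0.0395), Col15a1 by -0.96 (adjusted p = 0.0320), Prrx1 by -0.93 (adjusted p = 0.0288) and Igfbp4, a binding protein of insulin-like growth factors, by -0.88 (adjusted p = 0.0355). Inhba itself did not pass in Gel (-0.59, adjusted p = 0.0550).

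When areas were centred, 9 targets differed between Gel and Sham, of which 4 were shared with the 8: Acta2, Actn1, Mmp13 and Prrx1. The 5 gained were Apoe, Cd53, Cd68, Cybb and Lgmn, genes of macrophages, whose segment difference was the higher in Gel. The pan-macrophage list had a median of -0.06 in Gel, against -0.67 in Sham and -0.25 in CuNZ@Gel, with 4 members called lower in Sham and 0 in the others. Leaving out specimen 1 left 1 of the Gel against Sham calls, and leaving out specimen 2 gave 24. Leaving out specimen 1 region 2 gave 2 and specimen 2 region 1 gave 0, and 0 remained when targets had to exceed background in all 8 Gel areas.

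**Figure D5:**
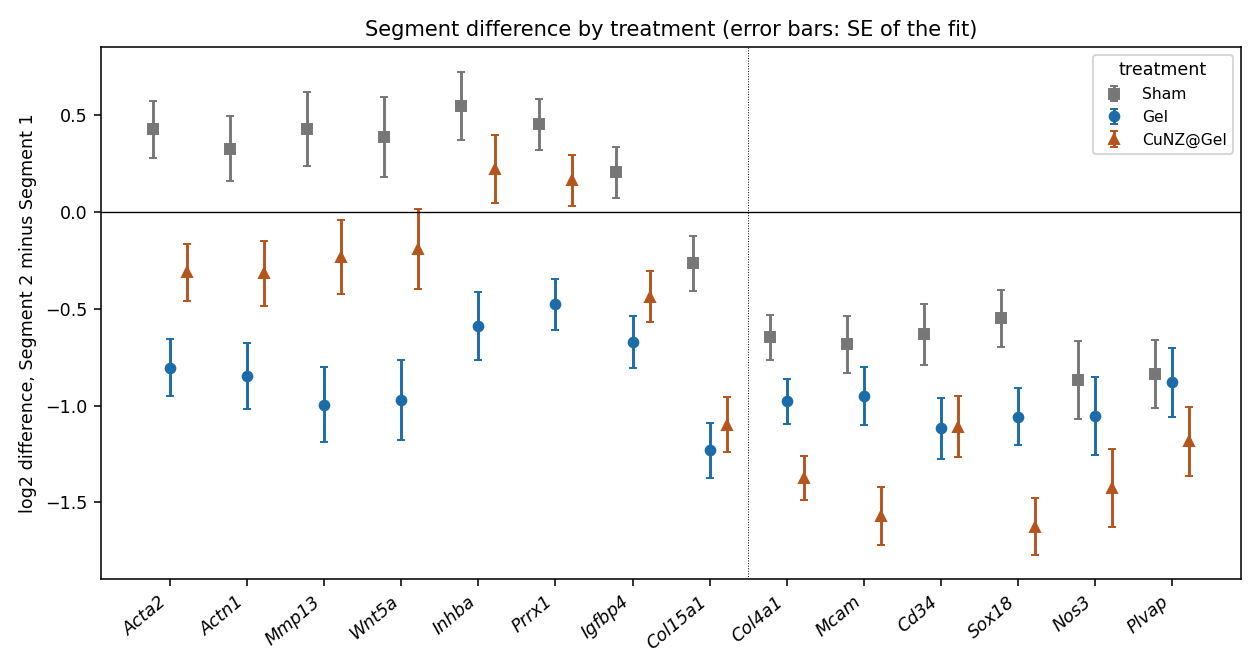
Log2 difference between Segment 2 and Segment 1 by treatment (squares Sham, circles Gel, triangles CuNZ@Gel) with the SE of the fit (n = 2 specimens each). The 8 genes left of the dotted line differed between Gel and Sham, with Sham above 0 for 7 of them; the 6 vessel genes on the right are below 0 in all 3 treatments.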

How the data were processed

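GeoMx areas of fixed, paraffin-embedded skin sections were profiled with RNA probes of a transcriptome or cancer panel, per the labels' protocols. The labels state neither which panel nor the species it was designed for, although the 19962 gene targets are of transcriptome scale. The sources used here do not give the aligner, the counting software or the probe filters. The deposited files give a signal per target. The values show that the submitters divided counts by 1 factor per area, since between 99.98% and 99.995% of values were whole multiples of the lowest value, within 0.01 of a count. The recovered totals ran from 139680 to 873465 in the Gel areas. Read duplicates cannot be removed from such values, so depth gives counting error only.

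The signal was analysed as log2(value + 1), so differences understate changes of low targets. The log2 values of the 2 regions of a specimen and segment were averaged. A linear model was fitted to all 24 areas with limma 3.58.1 (R 4.3.3), and eBayes was run with its trend and robust options, with the specimen as a block and a segment term per treatment. That left 3 residual degrees of freedom against a median prior of 28.1, so SEs rest mostly on a spread pooled over targets. For Rgs5 the SD used was 0.249 against 0.446 of its own, for Col15a1 0.142 against 0.188 and for Acta2 0.146 against 0.240. p-values rest on how the segment difference varied between the numbered specimens of a treatment, pooled over the 3 treatments. They are two-sided and Benjamini-Hochberg adjusted over 4280 targets.

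Segments pair by region through the sample titles, and the deviations of same-region segments from their group means correlated at 0.173, 0.313, 0.363 and 0.452. Since the titles number regions within specimens, the specimen was the block.

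Alternatives covered the filter, pseudocount, scaling, depth, model, block and the omission of each specimen or region. edgeR 4.0.16 and DESeq2 1.42.0 were run on the recovered counts summed per specimen and segment. The comparison, its members and the 38 gene lists (660 genes) were chosen with earlier results of these data known. Genes named are the 12 largest falls, or rises, past the threshold with the same sign in all 4 regions, up to 4 members of each described list by p, 24 genes whatever their values, and up to 6 targets of each test between treatments. Others are named as chosen after their values were seen. Of the targets tested, 4085 carry a rat gene symbol of RefSeq GRCr8, whose windows gave the printed sequences.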

Additional observations from a re-analysis of the deposited data

Results flagged for a closer look

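Of 90 sets of 4 Gel areas examined (the genes given by area and the total counts), 7 had an area whose gap to the nearest other exceeded the share of the range that Dixon's 95% critical value allows for 4 values, where chance alone would mark about 1 set in 20. Col15a1 in Segment 2 stood at 155 in specimen 2 region 1 against 72.7 to 74.9 in the others (ratio 0.973). Vim in Segment 2 was highest in the same area, with 1449 against 746 to 803 (ratio 0.919). Rgs5 in Segment 2 stood at 59.3 in specimen 2 region 2 against 8.18 to 14.3 (ratio 0.880), and Igfbp4 in Segment 2 at 237 in that area against 123 to 125 (ratio 0.982). Mcam in Segment 1 stood at 364 in specimen 2 region 1 against 150.2 to 183 (ratio 0.849). Mt2 in Segment 1 stood at 4130.2 in specimen 1 region 1 against 2298 to 2396 (ratio 0.946). The total count of Segment 2 was 688507 in specimen 1 region 2 against 139680 to 213093 (ratio 0.866), and this area's own differences are given by region in the results.

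The 8 targets whose segment difference in Gel differed from that in Sham had these differences of differences on the log2 scale: Acta2 -1.23, Actn1 -1.17, Col15a1 -0.96, Igfbp4 -0.88, Inhba -1.14, Mmp13 -1.42, Prrx1 -0.93 and Wnt5a -1.36. In Gel, 4 of the 8 lost their call against Sham when areas were centred (Col15a1, Igfbp4, Inhba and Wnt5a). Over the alternatives, the call was lost in 9 of 20 for Acta2, 10 of 21 for Actn1 and 11 of 21 for Col15a1. For Igfbp4 it was lost in 13 of 21, and for Inhba and Wnt5a in 13 of 20 each. Mmp13 lost it in 6 of 20 and Prrx1 in 9 of 21. Quantile normalization also called 8 targets against Sham, but only Actn1 and Mmp13 were shared with the list above.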

How the results depend on the processing

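The count of targets lower in Segment 2 stayed within 1.5 times of 148 for filters on at least 2 or all 8 Gel areas, both other pseudocounts, linear means and areas as samples with the region as a block. It was 75 with the filter on the negative probe, 25 with centred areas, 23 after quantile normalization, 305 with the receptor background subtracted, 39 with counts thinned to the shallowest area, 51 in edgeR, 8 in DESeq2 and 337 with the Gel areas alone. It was 0 in limma without the trend and robust options, where 663 targets had an unadjusted p under 0.05. The targets of DESeq2 were Cd34, Col15a1, Col4a1, Hspg2, Igfbp7, Mcam, Rhob and Sox18. With no replicate block 0 targets were lower and 488 had an unadjusted p under 0.05, and 0 differed between Gel and Sham. Leaving out 1 specimen or region gave 15 to 283 lower targets, where a lone specimen was assumed to vary like the others. The called genes picked by the naming rules above numbered 37, and each was followed through 20 to 22 alternatives. Of these 37, 0 kept their call under all of their alternatives and 0 changed sign under any. Called genes named otherwise, such as Hspg2, Lama4 and Igfbp7, were not followed in this way.

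Targets higher in Segment 2, 0 in the main fit, numbered 7 with the filter on the negative probe, 5 after quantile normalization (Basp1, Cd53, Fth1, S100a4 and Slc9a9), 1 with thinned counts (Amz1) and 8 in edgeR (Arid5b, Ccr7, Cd53, F13a1, Fbxl14, Ptges, Rnd1 and Slpi), and 0 to 1 when a specimen (Tnc) or region (Fbxl14) was left out. The 8 targets that differed between Gel and Sham became 0 when all 8 Gel areas had to exceed background, 3 with thinned counts (Acta2, Mmp13 and Vim), 0 without the trend and robust options, 1 in DESeq2 (Mmp13) and 1 with the region as a block (Prrx1), and 0 to 24 when a specimen or region was left out. Between Gel and CuNZ@Gel linear means and edgeR each called 1 target (Mmp13), and leaving out a specimen or region gave 0 to 6. The cause of these changes was not tested. In the Segment 2 areas of Gel between 0.11% and 30.5% of the targets stood at 1 count.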
